A study of Homo sapiens with 8 samples.

Results

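The formins are a family of proteins that nucleate and elongate unbranched actin filaments, and 10 of their genes were followed here through U2OS cells, an established human osteosarcoma line. They were DIAPH1, DIAPH2, DIAPH3, FMN1, FMN2, FMNL1, FMNL2, FMNL3, DAAM1 and INF2, taken as the rows of the gene expression table with exactly these symbols, 10 of 22504 genes. Sequencing of poly(A) RNA gave their transcript levels in cells that overexpressed the actin mutant G13R and in control cells that expressed GFP, both of them taken either from normal growth or after stimulation with serum. Each of the 4 groups had 2 libraries, 8 in all. All 8 came from the same cell line. The labels do not say which actin gene carries the mutation, which promoter drives it, whether the cells were a clone, or how long serum was applied.

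A formin works as a dimer of its FH2 domains, which ring the fast-growing end of an actin filament and add subunits there, while the neighbouring proline-rich FH1 segment recruits profilin-bound actin monomers. Most are held shut by contacts between their ends until a signal at the membrane opens them. By using up monomeric actin they free the coactivator MRTF, which actin monomers hold, to act with SRF on genes that serum induces. The G13R substitution yields actin that does not polymerise and so stays monomeric.

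Values are FPKM, fragments scaled to transcript length and to the mapped fragments of the library, so levels can be compared between genes. Fold changes are differences of log2(FPKM + 1) between group means, given ± SE from limma, which fitted all 12996 genes that reached 1 FPKM in at least 2 libraries. A gene is called at a Benjamini-Hochberg adjusted p under 0.05 over all of those genes. All 10 formin genes passed that filter, but FMNL2 did so only through the GFP serum libraries, where it was highest, so a difference there was built into its selection. The libraries summed to between 496166 and 559496 FPKM and held 12065 to 12568 genes at 1 FPKM or more. GFP serum replicate 2 stood apart on the first principal component, and its group had 186 genes with a gap over 2-fold between replicates, where the other groups had 87 to 102. Results that rest on it are given with and without it. FPKM keep no read counts, and the depth is therefore unknown. The labels do not state that replicates are separate cultures, and p-values thus reflect a spread that may be technical. In normal growth ACTB, the beta-actin gene, stood at 10628 ± 873 FPKM with G13R against 2690 ± 125 FPKM with GFP (SD, n = 2), a log2 fold change of 1.98 ± 0.08 (limma adjusted p = 2.8e-06). Of the 10 mesenchymal and osteoblast markers, 8 were at 1 FPKM or more in each library, while TWIST1 was listed at 0 in each and COL1A2 stayed under 1 FPKM.

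The promoters printed here are those of the formin genes called after serum in GFP cells, with FMNL2 left out. The choice was thus made from the calls, and members of both directions are among them. RefSeq promoter windows on GRCh38.p14 were matched by symbol for all 10 genes, which had 16 annotated starts between them. The letters shown are the 250 bases before the outermost start of each gene, 5′ to 3′ on its own strand. Capitals mark matches to the motifs listed after them.
FMNL1 (chr17:45221635-45221884, plus strand): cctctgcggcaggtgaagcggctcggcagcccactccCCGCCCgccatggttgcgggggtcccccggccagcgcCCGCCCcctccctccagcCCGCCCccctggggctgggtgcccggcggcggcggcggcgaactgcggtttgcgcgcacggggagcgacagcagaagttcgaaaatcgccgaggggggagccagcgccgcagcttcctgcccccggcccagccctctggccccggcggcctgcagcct
DAAM1 (chr14:59188417-59188666, plus strand): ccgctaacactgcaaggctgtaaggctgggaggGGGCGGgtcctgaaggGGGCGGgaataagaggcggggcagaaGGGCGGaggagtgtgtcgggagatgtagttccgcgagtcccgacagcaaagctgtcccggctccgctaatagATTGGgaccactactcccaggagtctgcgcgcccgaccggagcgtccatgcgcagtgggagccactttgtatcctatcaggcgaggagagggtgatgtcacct
DIAPH3 (chr13:60163929-60164178, minus strand): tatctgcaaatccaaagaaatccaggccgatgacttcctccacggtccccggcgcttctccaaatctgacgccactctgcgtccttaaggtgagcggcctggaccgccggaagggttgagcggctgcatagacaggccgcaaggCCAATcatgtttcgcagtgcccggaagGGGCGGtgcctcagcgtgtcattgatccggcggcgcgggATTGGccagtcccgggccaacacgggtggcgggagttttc
FMN2 (chr1:240091633-240091882, plus strand): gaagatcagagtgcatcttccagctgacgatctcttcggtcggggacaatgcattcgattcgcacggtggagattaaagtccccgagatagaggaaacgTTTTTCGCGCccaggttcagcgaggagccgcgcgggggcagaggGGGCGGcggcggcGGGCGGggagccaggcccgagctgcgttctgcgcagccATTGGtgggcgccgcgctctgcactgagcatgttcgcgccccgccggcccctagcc

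The windows of 300 bases, from 250 before to 50 after each start, were searched on both strands for 9 motifs. These were the SRF site known as the CArG box, AP-1 (TGANTCA), TEAD (GGAATG), CRE (TGACGTCA), E-box (CACGTG), E2F (TTTNNCGC), CCAAT box (CCAAT), GC box (GGGCGG) and FOXO (TGTTTAC). Some matches lie in each other, such as the 2 overlapping E2F matches of FMN2. A CArG box match was found in 0 of the 16 formin windows, and 1.29% of all 35116 promoter windows hold one. CRE and FOXO matches were also found in 0 of 16, where 1.85% and 3.42% of all windows hold them. GC boxes were found in 12 of the 16 (45% of all windows) and CCAAT boxes in 6 (34.6% of all). The FMNL1 window held 4 GC boxes, 1 of them past the start and so not in the letters shown, and no match to the other 8 motifs. The DAAM1 window held 3 GC boxes and 1 CCAAT box, and the outermost DIAPH3 window held 2 CCAAT boxes and 1 GC box. TEAD matches lay in 2 of 16 windows (14% of all), at an inner start of DIAPH3 and at 1 of INF2. AP-1 (7.71% of all) was matched in 1 window, of INF2, E2F (6.89%) in 1, of FMN2, and the E-box (7.26%) in 3, of DIAPH1, DIAPH2 and INF2. A missing match says only that these letters are not in these windows.

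Among the 10 genes FMNL1 and DIAPH1 were the most abundant transcripts, with means over the 8 libraries of 27.4 ± 7.05 and 26.7 ± 4.11 FPKM (SD, n = 8). They made up 24.1% and 23.5% of the mean FPKM sum of the 10 genes. FMNL3 followed at 15.3 ± 1.76, INF2 at 13.8 ± 1.49 and DAAM1 at 13.4 ± 3.12 FPKM. DIAPH3 had 6.97 ± 1.37, FMN1 5.07 ± 1.33, DIAPH2 3.32 ± 0.474, FMN2 1.1 ± 0.905 and FMNL2 0.654 ± 0.397 FPKM. The ranges of DIAPH1 and FMNL3 did not overlap, nor did those of DAAM1 and DIAPH3, so the family falls into an upper pair, a middle group of 3 and a lower group of 5. Other neighbours in the order had overlapping ranges, which pool the 4 groups and do not compare genes within a library. DIAPH2 was above FMN2 in each of the 8 libraries and FMN1 above DIAPH2 in 7. The lower group is not uniform, since DIAPH3 at its lowest (5.07 FPKM) was above FMN2 at its highest (2.55 FPKM). The 10 genes together took 0.0194 to 0.0258% of all FPKM. They do not include FHOD1, a formin gene with a higher mean of 34.8 ± 7.4 FPKM (SD, n = 8), described with the other formins.

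**Figure D1:**
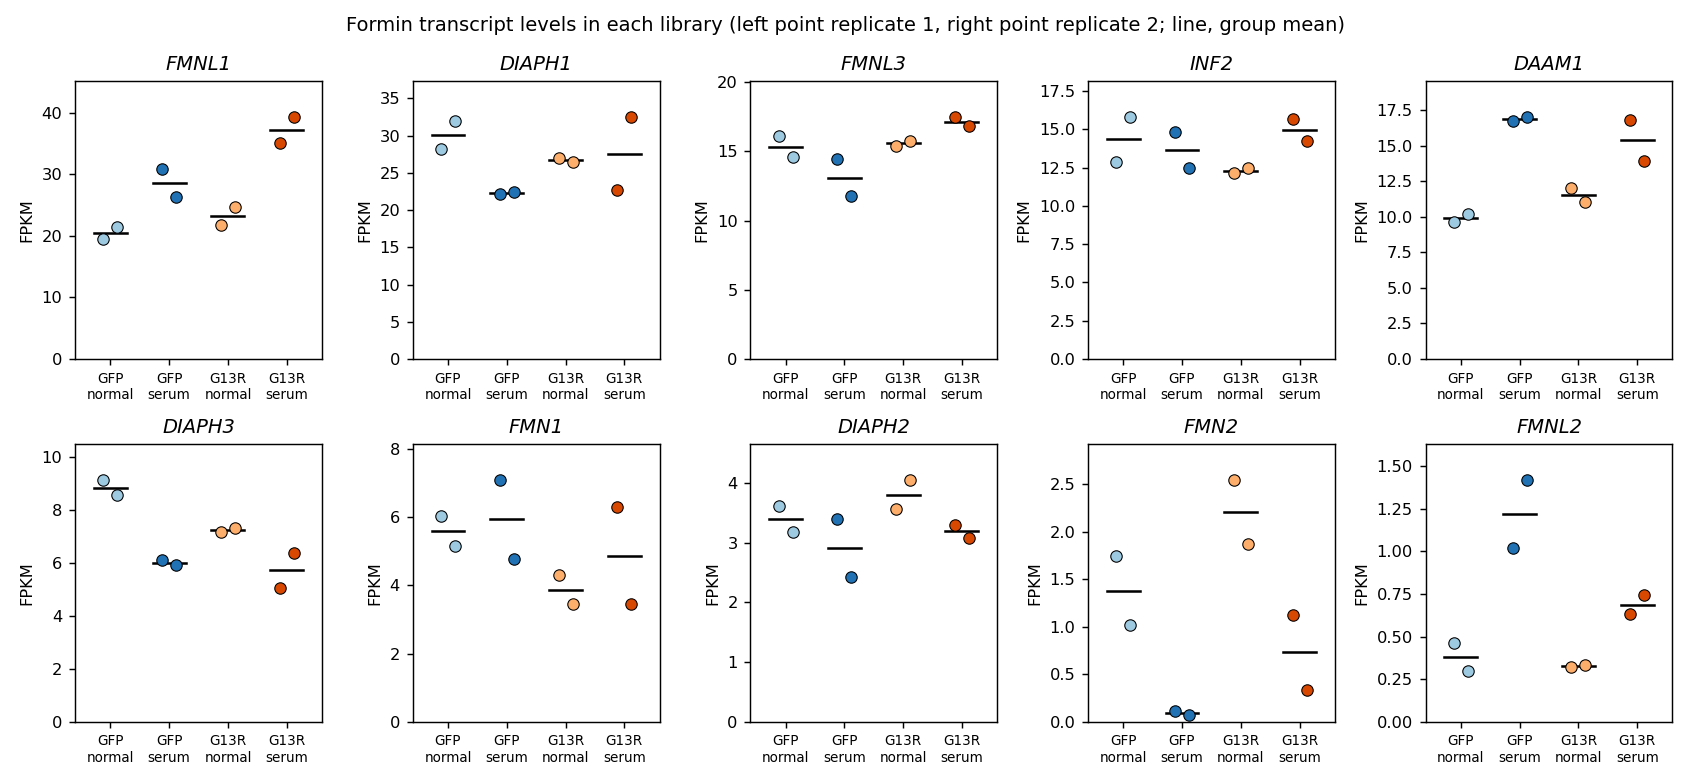
FPKM of each formin gene (vertical axis, from 0, scaled per gene) in the 4 groups, with 1 point per library and a line at the group mean. FMNL1 and DAAM1 are higher in serum than in normal growth within each kind of cell, DIAPH3 and FMN2 lower, and the G13R serum libraries of DIAPH1 lie far apart at 22.7 and 32.5 FPKM.

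In GFP cells, serum was followed by higher DAAM1, FMNL1 and FMNL2 and lower FMN2 and DIAPH3 transcripts. These are 5 of the 10 formin genes, but FMNL2 owes its place among those tested to the GFP serum libraries. Without FMNL2, 4 of 9 were called, where 30.7% of all tested genes were called in that comparison. The 2 higher of the 9 stand beside 14.9% of all genes called higher, and the 2 lower beside 15.7% called lower. In G13R cells FMNL1 alone among the 10 was called, higher, where 12.9% of all genes were called and 8.26% called higher. There 0 of 10 were called lower, beside 4.62% of all genes. In bulk RNA, fewer cells that carry a transcript and less of it per cell cannot be told apart. The libraries of serum and normal growth did not overlap for 7 of 10 formin genes in GFP cells and 8 of 10 in G13R cells. The same held for 66.3% and 60.7% of all tested genes. FMNL2 is among the 7, but the filter by which it was selected already set its GFP libraries apart. The median log2 fold change of the 10 genes was -0.12 in GFP and 0.18 in G13R cells, against 0.012 and 0.043 over all genes. The median size of the change without its sign was 0.44 for the formin genes and 0.30 for all genes in GFP cells, and 0.28 and 0.22 in G13R cells. Both GFP medians of the formin genes include FMNL2.

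**Figure D2:**
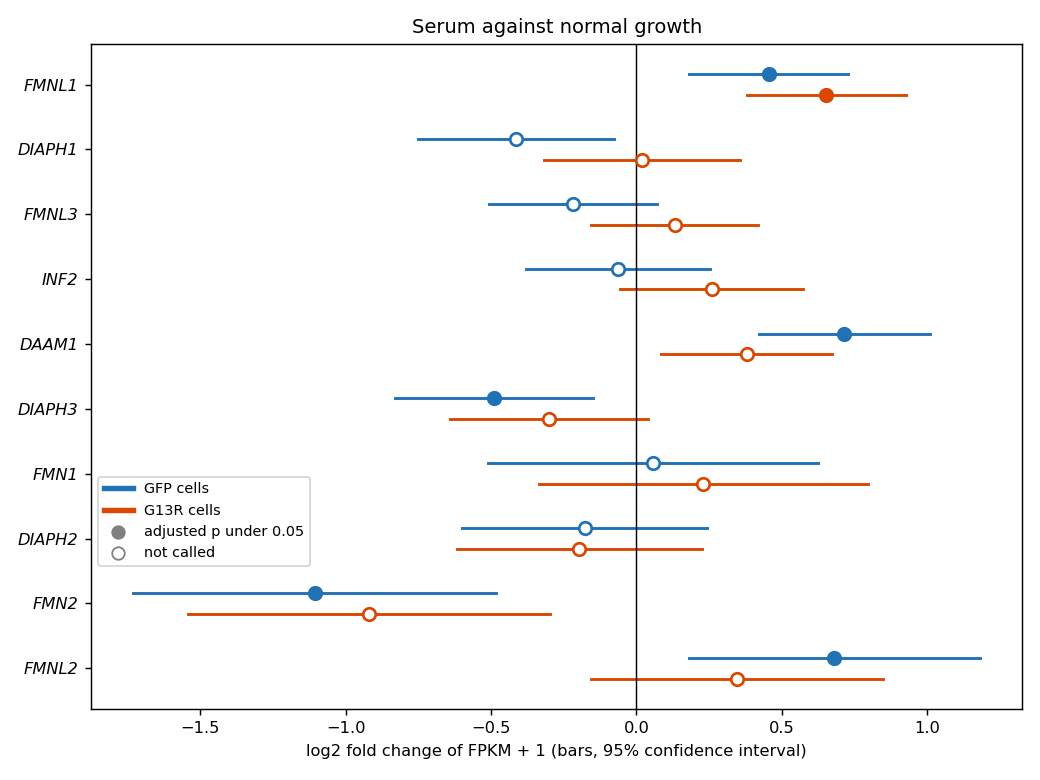
Log2 fold change of FPKM + 1 after serum against normal growth (horizontal axis) for each formin gene, in GFP cells (blue) and G13R cells (orange). Bars are 95% confidence intervals from limma and filled points passed the adjusted p threshold: 5 in GFP cells and FMNL1 in G13R cells. Over all tested genes 30.7% and 12.9% passed. FMNL2 is among the 5 but entered the test only through the GFP serum libraries.

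The FMNL genes encode formins bound to the membrane through a lipid anchor. FMNL1 (chromosome 17, 43298811 to 43324687 on hg19, the build of all gene spans given) is best known from macrophages and other leukocytes, where it acts in podosomes. It had 19.5 and 21.5 FPKM in the 2 GFP normal growth libraries and 30.9 and 26.2 after serum. In G13R cells it had 21.8 and 24.7 FPKM in normal growth and 35.1 and 39.3 after serum. Each of the 4 serum libraries was above each of the 4 normal growth libraries. The log2 fold change after serum was 0.46 ± 0.12 in GFP cells (limma adjusted p = 0.0191) and 0.65 ± 0.12 in G13R cells (limma adjusted p = 0.00888). The GFP call was lost without GFP normal growth replicate 1 (0.39, limma adjusted p = 0.119) and without GFP serum replicate 1 (0.34, 0.0798), and kept without GFP serum replicate 2 (0.57, limma adjusted p = 0.0175). In G13R cells it was lost without normal growth replicate 1 (0.57, limma adjusted p = 0.0772) and without serum replicate 2 (0.57, 0.0861). As a check for leukocyte RNA, the 8 leukocyte markers summed to 7.38 to 9.72 FPKM in the normal growth libraries and 5.08 to 6.95 after serum, and 6 of the 8, PTPRC among them, stayed under 1 FPKM in each library. LCP1, which encodes an actin bundling protein, took the largest part of that sum and fell after serum (-0.64 in GFP and -1.01 in G13R cells, limma adjusted p = 0.0412 and 0.0127). PTPRC was highest in GFP serum replicate 2, at 0.814 FPKM. The part of leukocyte RNA in the FMNL1 change was not tested.

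FMNL2 (chromosome 2, 153191751 to 153506348), which elongates filaments in lamellipodia and binds CDC42, had the lowest mean of the 10 genes. It had 0.462 and 0.299 FPKM in GFP normal growth and 1.02 and 1.42 after serum, and 0.324, 0.332, 0.632 and 0.745 in the same order in G13R cells. Serum libraries were thus above normal growth libraries within each kind of cell, an order that in GFP cells follows from how the gene passed the filter. Its log2 fold change was 0.68 ± 0.23 in GFP cells (limma adjusted p = 0.0435) and 0.35 ± 0.23 in G13R cells (limma adjusted p = 0.339). The GFP call was lost under 9 of the 11 alternatives in which the gene could be tested, with adjusted p up to 0.173. Without either GFP serum library it no longer passed the filter.

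FMNL3 (chromosome 12, 50031724 to 50101948), known from filopodia and from growing blood vessels, varied 1.48-fold between its lowest and highest library. It had 16.1 and 14.6 FPKM in GFP normal growth, 14.4 and 11.8 after serum, 15.4 and 15.8 in G13R normal growth and 17.5 and 16.9 after serum. Serum libraries were below normal growth in GFP cells and above it in G13R cells, but neither change was called (log2 fold changes -0.22 ± 0.13 and 0.13 ± 0.13, limma adjusted p = 0.228 and 0.54). The gene span overlaps those of PRPF40B and TMBIM6, of which the higher reached 534 FPKM, and the sources used here do not state whether reads were assigned by strand.

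DAAM1 (chromosome 14, 59655364 to 59838123) binds Dishevelled and acts in the Wnt signals of planar cell polarity. It had 9.6 and 10.2 FPKM in GFP normal growth and 16.7 and 17.0 after serum, with no overlap. In G13R cells it had 12.02 and 11.1 FPKM in normal growth and 16.8 and 13.9 after serum, also without overlap. The log2 fold change in GFP cells was 0.71 ± 0.13 (limma adjusted p = 0.00324), and it was called under each of the 13 alternatives tried, with values from 0.64 to 0.76. It was 0.38 ± 0.13 in G13R cells, which did not pass (limma adjusted p = 0.0877). The difference between the 2 responses was -0.34 ± 0.19 (limma adjusted p = 0.504), so the responses are not shown to differ.

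The DIAPH genes encode the Diaphanous formins. DIAPH1 (chromosome 5, 140894583 to 140998622), which builds stress fibres together with ROCK, had 28.3 and 31.9 FPKM in GFP normal growth and 22.1 and 22.5 after serum. It had 27.1 and 26.5 FPKM in G13R normal growth and 22.7 and 32.5 after serum. The GFP serum libraries were below both GFP normal growth libraries, and the G13R serum libraries lay on either side of theirs. The log2 fold change was -0.41 ± 0.15 in GFP cells (limma adjusted p = 0.0623) and 0.02 ± 0.15 in G13R cells (limma adjusted p = 0.945). The GFP value narrowly missed the threshold and passed it without G13R serum replicate 1 or 2 (limma adjusted p = 0.0244 and 0.0255), which enter only through the shared estimate of the spread. The G13R value was 0.27 without G13R serum replicate 1 and -0.23 without G13R serum replicate 2.

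DIAPH3 (chromosome 13, 60239717 to 60738119), which takes part in filopodia and in the contractile ring of dividing cells, had 9.15 and 8.57 FPKM in GFP normal growth and 6.11 and 5.94 after serum. It had 7.19 and 7.32 FPKM in G13R normal growth and 5.07 and 6.39 after serum. Each serum library was below each normal growth library over both kinds of cell. The log2 fold change was -0.49 ± 0.15 in GFP cells (limma adjusted p = 0.0354) and -0.30 ± 0.15 in G13R cells (limma adjusted p = 0.22). The GFP call was lost without the filter and without any of 6 of the 8 libraries: G13R normal growth replicates 1 and 2 (limma adjusted p = 0.0502 and 0.0504), GFP normal growth replicates 1 and 2 (0.158 and 0.0925) and GFP serum replicates 1 and 2 (0.0651 and 0.11). The value itself stayed between -0.61 and -0.45. DIAPH2 (chromosome X, 95939662 to 96859996), a Diaphanous formin linked to ovarian function, ranged from 2.42 to 4.05 FPKM and was called in no comparison. Its span holds RPA4, which reached at most 1.65 FPKM.

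The founding members FMN1 and FMN2 are large formins. FMN2 (chromosome 1, 240177648 to 240638489), which with the Spire proteins builds the actin network that positions the spindle in oocytes, varied most of the 10 genes, by 35.2-fold between the highest and the lowest library. It had 1.74 and 1.01 FPKM in GFP normal growth and 0.11 and 0.0723 after serum. In G13R cells it had 2.55 and 1.87 FPKM in normal growth and 1.13 and 0.337 after serum. The serum libraries were thus lowest within each kind of cell, and the 2 GFP serum libraries were the lowest of all. The log2 fold change of FPKM + 1, a scale that understates changes at such low levels, was -1.11 ± 0.28 in GFP cells (limma adjusted p = 0.0143) and -0.92 ± 0.28 in G13R cells (limma adjusted p = 0.057). With a pseudocount of 0.1 the GFP value was -2.91. The GFP call was lost without GFP normal growth replicate 1 (-0.88, limma adjusted p = 0.11) and without GFP serum replicate 2 (-1.08, 0.0566). The G13R value was called under quantile normalization (limma adjusted p = 0.0361). The 6 neural markers, listed because FMN2 is best known from brain and oocytes, summed to 26.1 to 30.3 FPKM in normal growth and 25.8 to 31.8 after serum. The sums overlapped, but members moved apart: MAP2 rose in GFP and G13R cells (0.90 ± 0.21 and 0.94 ± 0.21, limma adjusted p = 0.00937 and 0.0174), and SYP fell in GFP cells (-0.61 ± 0.17, limma adjusted p = 0.0255). The part of neural markers in the FMN2 change was not tested.

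FMN1 (chromosome 15, 33057747 to 33486897), known from limb development and cell junctions, was spread widely within groups. It had 6.04 and 5.15 FPKM in GFP normal growth, 7.10 and 4.78 after serum, 4.32 and 3.44 in G13R normal growth and 6.30 and 3.45 after serum. Serum and normal growth libraries overlapped in both kinds of cell, and its log2 fold changes of 0.06 ± 0.25 and 0.23 ± 0.25 were not called (limma adjusted p = 0.886 and 0.588). INF2 (chromosome 14, 105155943 to 105185942), which both builds and severs filaments and acts where mitochondria divide, had 12.1 to 15.8 FPKM, a 1.3-fold range that was the narrowest of the 10 genes. Its log2 fold changes after serum were -0.06 ± 0.14 in GFP cells and 0.26 ± 0.14 in G13R cells (limma adjusted p = 0.764 and 0.254).

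The order of the 2 leading genes of the 10 differed between conditions. DIAPH1 was the most abundant of the 10 in all 4 normal growth libraries and FMNL1 in all 4 serum libraries, a pattern noticed in these data and not tested. The ratio of FMNL1 to DIAPH1 FPKM was 0.689 and 0.674 in GFP normal growth and 1.39 and 1.17 after serum. In G13R cells it was 0.807 and 0.933 in normal growth and 1.55 and 1.21 after serum. Such a ratio within a library does not depend on how libraries are scaled. FMNL1 made up 18.2 and 19.2% of the formin FPKM in GFP normal growth and 26.4 and 25.1% after serum, and 20.5 and 23.0% against 28.2 and 30.0% in G13R cells. DIAPH1 stood at 26.3 and 28.5% of it in GFP normal growth and at 19.0 and 21.5% after serum. The DAAM1 share was 8.94 and 9.06% in GFP normal growth and 14.3 and 16.2% after serum, but in G13R cells it was 11.3 and 10.3% before and 13.6 and 10.6% after.

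**Figure D3:**
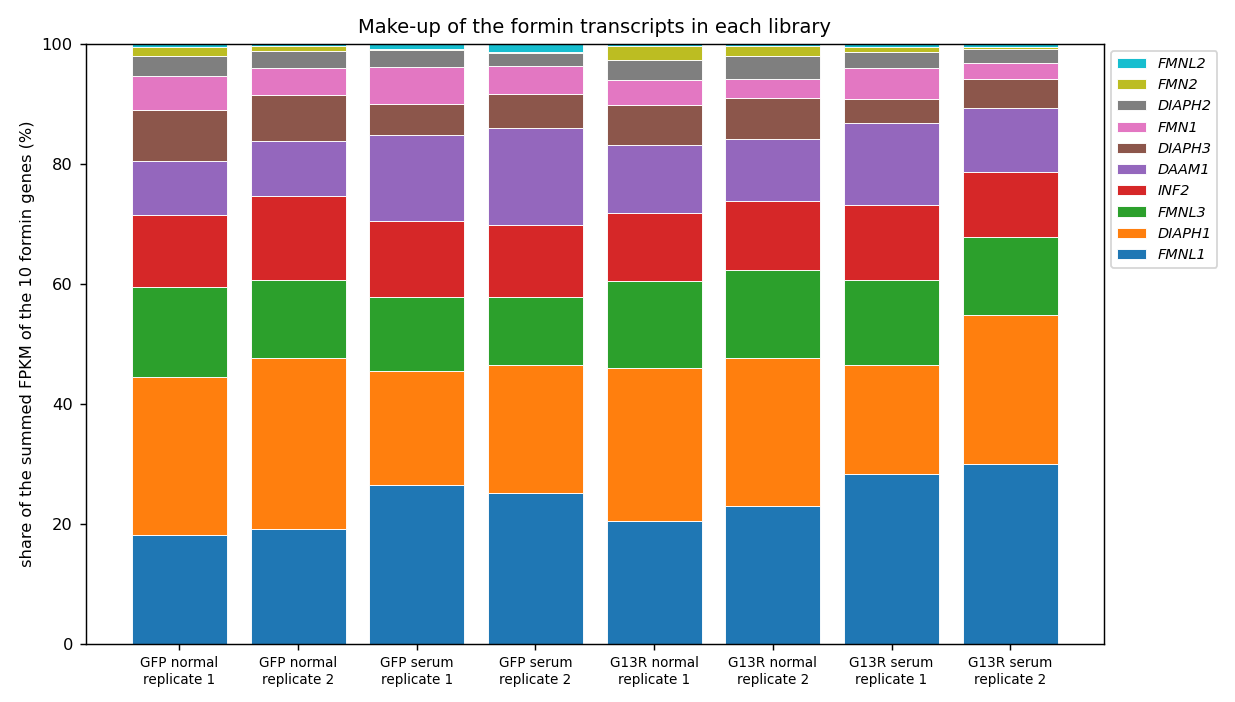
Share of each gene in the summed FPKM of the 10 formin genes (vertical axis, percent), as 1 stacked bar per library. FMNL1, at the base, takes 18.2 to 23.0% of the bar in normal growth and 25.1 to 30.0% after serum.

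G13R and GFP cells were then compared within each condition, to ask how formin transcripts differ when the mutant is present. These comparisons share their libraries with the serum responses above. In normal growth 0 of 10 formin genes were called by limma, where 0.0462% of all genes were called, and 0 of 10 had an unadjusted p under 0.05, against 15.1% of all genes. After serum 0 of 10 were called, where 0.823% of all genes were, and 3 of 10 had an unadjusted p under 0.05, against 20.8% of all genes. Those 3 were FMNL1 (0.37 ± 0.12, limma adjusted p = 0.135), FMNL3 (0.37 ± 0.13, limma adjusted p = 0.149) and FMN2 (0.63 ± 0.28, limma adjusted p = 0.237). Both G13R serum libraries were above both GFP serum libraries for each of the 3. FMN2 had a mean of 0.733 FPKM in G13R cells after serum and 0.0913 in GFP cells. Without GFP serum replicate 2, the library that stood apart, the values of FMNL1 and FMNL3 were 0.26 and 0.24. Without GFP serum replicate 1 they were 0.48 and 0.51. Each of these fits leaves a single GFP serum library, which in the last one is the replicate that stood apart. The groups did not overlap for 7 of 10 genes in normal growth and 5 of 10 after serum, beside 48.7% and 51.9% of all genes. FMNL2 is among the 5 after serum, where the filter by which it was selected already set the groups apart.

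The intervals of these comparisons give a range for each difference between these libraries. They rest on a spread estimated over all 4 groups that may be technical, so differences between separate cultures may lie outside them. For DIAPH1 in normal growth the 95% interval of the log2 fold change ran from -0.50 to 0.17, and for DAAM1 from -0.09 to 0.50. INF2, which stood at 12.3 ± 0.235 FPKM in G13R and 14.3 ± 2.05 in GFP cells (SD, n = 2), had an interval from -0.51 to 0.12. FMN1 was lower in both G13R normal growth libraries than in both GFP ones, with an interval from -1.003 to 0.13. The widest were those of FMN2, from -0.18 to 1.06 in normal growth.

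**Figure D4:**
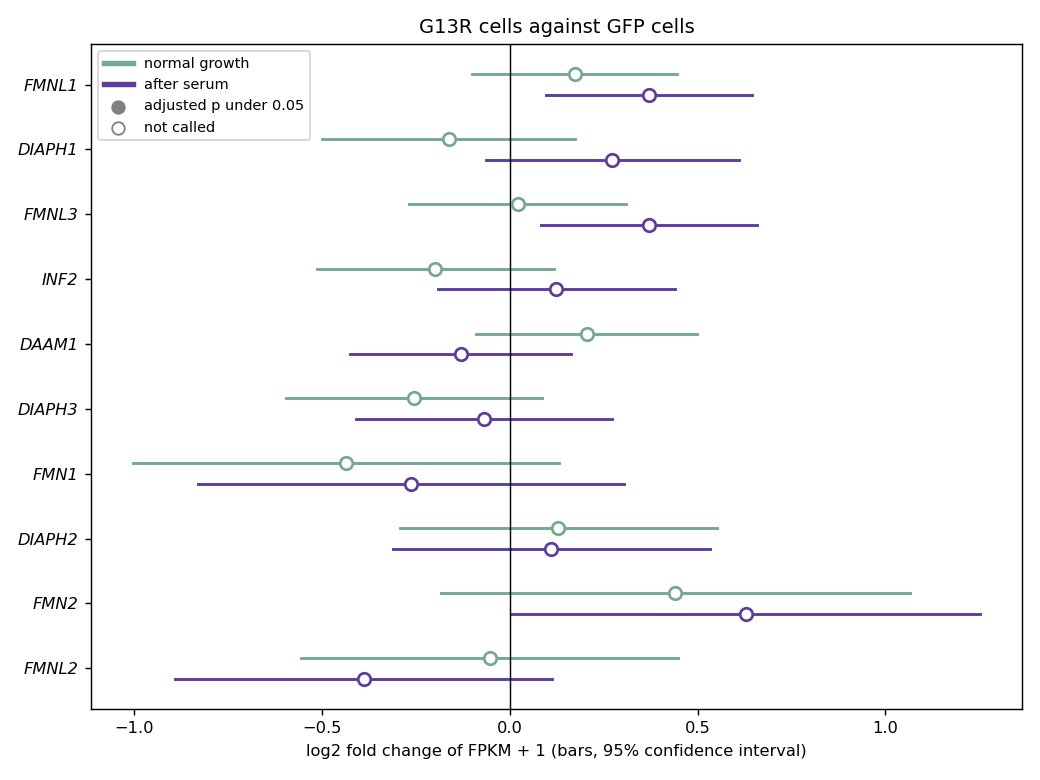
Log2 fold change of FPKM + 1 in G13R against GFP cells (horizontal axis) for each formin gene, in normal growth (green) and after serum (purple), with 95% confidence intervals from limma. All points are open because none passed the adjusted p threshold, and the intervals of FMNL1, FMNL3 and FMN2 after serum lie above 0.

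The difference of the serum responses, G13R minus GFP, was called for 0 of 10 formin genes and for 0% of all genes by limma. An unadjusted p under 0.05 was reached by 0 of 10 formin genes and by 11.8% of all genes. On the log2(FPKM + 1) scale the largest value was that of DIAPH1, 0.44 ± 0.21 (95% interval -0.04 to 0.91, limma adjusted p = 0.459). FMNL3 followed at 0.35 ± 0.18 (95% interval -0.06 to 0.76). FMN2 was at 0.19 ± 0.40 on that scale, which understates changes at its low level. With a pseudocount of 0.1 the FMN2 value was 1.27, also not called, so the ranking depends on the scale. For DAAM1 the difference was -0.34 ± 0.19 (95% interval -0.75 to 0.08) and for FMNL2 -0.34 ± 0.32. FMNL2 was tested only because of its GFP serum libraries, so a negative value was favoured by its selection.

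Other genes of the pathway were read from 5 lists with 55 genes, of which 48 were tested. In GFP cells serum was followed by 11 higher and 6 lower calls among them, 35.4% of the 48 beside 30.7% of all genes, and in G13R cells by 9 higher and 3 lower, 25% beside 12.9%. Between G13R and GFP cells limma called 0 of the 48 in either condition, with 8 and 11 at an unadjusted p under 0.05, where 15.1% and 20.8% of all genes were. It called 0 for the difference of the responses, with 3 at an unadjusted p under 0.05, where 11.8% of all genes were. The counts of each list below stand beside 14.9% of all genes called higher and 15.7% lower in GFP cells, and 8.26% and 4.62% in G13R cells, and its medians beside 0.012 and 0.043 over all genes. Of the 26 called changes of list genes named below, 7 kept their call under every alternative run and 19 lost it under at least 1. Those kept in GFP cells were MAPRE1, SPIRE2, CAPG, TWF1 and RTKN, and in G13R cells CAPG and TWF2. Besides DAAM2 and FHOD1, the calls of CIT, DVL1, DVL3, EPS8, IQGAP1 and LIMK1 in GFP cells were lost without GFP serum replicate 2. Without it the log2 fold changes were 0.39 for CIT, -0.35 for DVL1, 0.28 for DVL3, 0.47 for EPS8, 0.43 for IQGAP1 and -0.33 for LIMK1.

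Of the 5 formin genes outside the 10, FHOD3, FHDC1 and GRID2IP stayed under the filter. DAAM2, the paralog of DAAM1, had 1.72 and 2.02 FPKM in GFP normal growth and 3.39 and 5.68 after serum, a log2 fold change of 0.92 ± 0.26 (limma adjusted p = 0.023). It was 0.62 without GFP serum replicate 2 (limma adjusted p = 0.157). The call was also lost without GFP normal growth replicate 1 (limma adjusted p = 0.114) and replicate 2 (0.0654). FHOD1, a stress fibre formin, had 37.4 and 40.8 FPKM in GFP normal growth and 33.2 and 18.7 after serum (-0.62 ± 0.20, limma adjusted p = 0.0406). That call rested on GFP serum replicate 2: without it the value was -0.23 (limma adjusted p = 0.196), and the call was lost under 10 of the 13 alternatives. FHOD1 was above both FMNL1 and DIAPH1 in all 4 normal growth libraries. After serum it was above FMNL1 in 1 of 4 libraries and above DIAPH1 in 2 of 4.

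The formin partners had 2 higher and 3 lower of 14 in GFP cells, where 30.7% of all genes were called either way, and 2 higher and 1 lower in G13R cells, where 12.9% were (medians -0.07 and 0.01). FLNA, counted among the 14 as not called, was listed at 0 in GFP normal growth replicate 2 and G13R serum replicate 2. In the other libraries it had 374 to 478 FPKM, so its lack of a call cannot be read as no change. IQGAP1, a scaffold that binds DIAPH1, rose by 0.58 ± 0.14 in GFP and 0.51 ± 0.14 in G13R cells. MAPRE1, the microtubule end protein EB1, fell by 0.56 ± 0.09 and 0.38 ± 0.09 on the log2 scale. The Dishevelled genes moved apart in GFP cells, DVL3 at 0.28 ± 0.09 and DVL1 at -0.57 ± 0.14, and DVL3 also rose in G13R cells (0.31 ± 0.09, limma adjusted p = 0.0493), where DVL1 was at -0.05 ± 0.14, not called. Of 10 other nucleators tested, 3 were higher in each kind of cell and 0 lower (medians 0.14 and 0.14). SPIRE2, which encodes a Spire nucleator of the kind that works with FMN2, had 2.45 and 2.69 FPKM in GFP normal growth and 5.79 and 6.92 after serum. Its log2 fold change was 1.04 ± 0.17 in GFP and 0.98 ± 0.17 in G13R cells, opposite in sign to FMN2. COBL, a nucleator of unbranched filaments, rose by 0.66 ± 0.16 and 0.62 ± 0.16.

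Among 10 barbed end and elongation factors, 3 were higher and 1 lower in GFP cells (30.7% of all genes called either way), and 2 higher and 1 lower in G13R cells (12.9% of all genes; medians -0.06 and -0.01). The capping protein gene CAPG rose by 0.72 ± 0.13 and 0.81 ± 0.13. TWF2, a twinfilin gene, rose in both (0.35 ± 0.09 in GFP and 0.62 ± 0.09 in G13R cells). TWF1, the other twinfilin gene, fell in GFP cells (-0.70 ± 0.12) and was at -0.35 ± 0.12 in G13R cells, not called. EPS8, which caps and bundles filaments, rose in GFP cells (0.57 ± 0.15) and was at 0.29 ± 0.15 in G13R cells, not called. CAPZA1, a capping protein subunit, fell in G13R cells (-0.44 ± 0.10) and was at -0.27 ± 0.10 in GFP cells, not called. Of 12 genes of the ROCK arm, the contractility kinases and their partners, 2 were higher and 1 lower in each kind of cell (medians 0.04 and 0.08). RTKN, which encodes rhotekin, rose by 0.68 ± 0.14 and 0.85 ± 0.14. CIT (citron kinase) rose by 0.58 ± 0.14 in GFP cells and was at 0.42 ± 0.14 in G13R cells, not called. MYL12A, a myosin light chain gene named after its values were seen, rose in G13R cells (0.33 ± 0.08, limma adjusted p = 0.021, lost without any 1 of the 4 G13R libraries) and was at 0.02 ± 0.08 in GFP cells, not called. LIMK1, the cofilin kinase downstream of ROCK, fell by 0.32 ± 0.09 and 0.33 ± 0.09 on the log2 scale.

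For each of the 5 called formin genes, the 2 tested genes with the most similar course over the 8 libraries were found by the root mean square difference of log2(FPKM + 1), each gene centred on its own mean. For DAAM1, whose own root mean square deviation was 0.296, they were the semaphorin receptor gene PLXND1 (0.0601) and the T-box factor gene TBX18 (0.0708). For FMNL1 (0.325) they were C9orf89 (0.0638) and ZNF365 (0.0792). For DIAPH3 (0.231) they were HAUS7, which encodes a subunit of the augmin complex of the spindle (0.0428), and TRIP13, which acts in the spindle checkpoint (0.0472). The pairs for FMNL2 (0.303) were EPM2AIP1 (0.0441) and TMEM59 (0.0559). FMN2 (0.614) had no close match, its nearest genes being CYP1A1 (0.21) and the potassium channel gene KCNG1 (0.211). These are the nearest of 12996 genes by construction, over libraries of only 4 groups.

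The formin genes were also checked for shared sequence, since Cufflinks divides reads between similar transcripts. Of the 50-base windows in the GENCODE 29 transcripts of each gene, 0% occurred in those of another of the 10 formins. At most 0.595% occurred in transcripts of any other gene, in FMN1. Windows were compared in the sense orientation only, so the check does not cover reads from genes that overlap on the opposite strand. The part of such reads was not tested.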

How the data were processed

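Poly(A) RNA of U2OS cells was sequenced in 8 libraries of 4 groups on an Illumina instrument, per the labels' protocols. The authors deposited 1 value per gene and library, read here as FPKM because Cufflinks is named as a tool and the values fit that unit, which the table's header does not state. TopHat2 2.0.13, Cufflinks 2.2.1 and the builds hg19 and BDGP5 are named per the submitters' processing notes, while the sources used here do not name the gene annotation. Column names gave the libraries (the letter C was taken as normal growth). Starts were read as counted from 0 and raised by 1, because 81.8% of 148 short olfactory receptor genes then span whole codons.

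The fit on log2(FPKM + 1) used limma 3.58.1 (R 4.3.3) with an intensity trend, 1 mean per group and 4 residual degrees of freedom, and was tested on simulated data. In a simulated GFP serum response over 12742 genes, 78% of log2 changes of 1 and 98% of those of 2 were recovered, and 7.37% of the calls were unchanged genes. Only a small set of genes above a level cut was changed in it. Apart from FMN2 in GFP cells, the formin changes here are smaller than 1, and FMN2 and FMNL2 lie under that cut. The recovery therefore does not carry over to the formin results. Members, lists and tests were chosen with earlier results of these data known. All 10 formin genes are named, and from each list the called genes with the largest changes, at most 2 per direction and comparison. Alternatives were a pseudocount of 0.1, no filter, median-ratio scaling, quantile normalization, the replicate number as a block, and leaving out each library. Some items of the lists are not reported here. No interval for counting error was computed, since FPKM keep no counts.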

Additional observations from a re-analysis of the deposited data

How the results depend on the processing

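Of the 640 values of formin genes under the alternatives, 54 kept a call, 22 lost one, 7 gained one and 24 changed sign, all 24 in values that were not called. FMNL2 in GFP cells, whose call was favoured by its selection, gave 2 of the kept and 9 of the lost calls. The number of formin genes called after serum in GFP cells was 5, and 1 to 5 when a library was left out. In G13R cells it was 1, with 2 under quantile normalization and 2 with the replicate number as a block, and 0 to 1 when a library was left out. After serum, G13R against GFP, it was 0, and 0 to 2 when a library was left out. The number of all genes called was 3985 for serum in GFP cells (2155 to 4263 when a library was left out) and 1675 in G13R cells (932 without the filter, and 413 to 2366 when a library was left out). For G13R against GFP in normal growth it was 6 (12 under quantile normalization, 83 with the replicate block, and 4 to 109 when a library was left out). After serum it was 107 (4 without the filter, 164 under quantile normalization, 403 with the replicate block, and 5 to 1620 when a library was left out). For the difference of the responses it was 0 (1 with a pseudocount of 0.1, 2 under quantile normalization, and 0 to 486 when a library was left out). The causes were not tested. In the main fit the formin counts stand beside 30.7% of all genes called after serum in GFP cells and 12.9% in G13R cells. Between the cells after serum the share was 0.823%. The 5 in GFP cells include FMNL2, which passed the filter only through the GFP serum libraries, and without it 4 of 9 were called.

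Values that were near 0 changed sign in some settings. In GFP cells after serum FMN1 was -0.0912 under quantile normalization and -0.19 to 0.30 when a library was left out, DIAPH2 was -0.36 to 0.0029 and INF2 -0.20 to 0.073. In G13R cells after serum DIAPH1 was -0.012 under median-ratio scaling, -0.0075 under quantile normalization and -0.23 to 0.27 when a library was left out, and FMN1 was -0.13 to 0.59. Between the cells in normal growth FMNL2 was -0.14 to 0.0313 and FMNL3 -0.0445 to 0.0861 when a library was left out. After serum DIAPH2 was -0.0706 to 0.29, DIAPH3 -0.21 to 0.0731 and FMN1 -0.62 to 0.0935. For the difference of the responses DIAPH2 was 0.0097 under quantile normalization and -0.20 to 0.16 when a library was left out, FMN1 -0.18 to 0.53 and FMN2 -0.15 to 0.52.

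The labels do not say whether libraries with the same replicate number share a culture or a day. The deviations of such libraries from their group means correlated across genes at r = 0.0169 to 0.121, above 0 in each of 6 pairs of groups. What these libraries share was not tested. With the replicate block DIAPH1 in GFP cells (adjusted p = 0.049) and FMN2 in G13R cells (adjusted p = 0.0353) passed after serum, and FMNL2 in GFP cells did not (adjusted p = 0.0536).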
